A study of Mus musculus with 18 samples.

Results

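The proteasome genes of mouse liver were compared between ischemia-reperfusion and sham surgery. They were taken as the protein-coding genes whose symbol is Psm, a letter from a to g and a number, which gave 48 genes of the 47729 listed. The symbol alone sets the membership, though this set of genes was chosen with earlier results of these data known. The genes encode the barrel of the proteasome, the cap that feeds it, its activators and inhibitor, and factors that assemble it.

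The proteasome degrades proteins that carry ubiquitin. Its barrel, the 20S core, stacks rings of alpha and beta subunits, and the beta subunits encoded by Psmb5, Psmb6 and Psmb7 cut the protein chain. The 19S cap recognises ubiquitin, removes it, and unfolds the substrate with a ring of ATPases. In cells exposed to interferon gamma, and constitutively in many immune cells, newly made cores take up Psmb8 in place of Psmb5, Psmb9 in place of Psmb6 and Psmb10 in place of Psmb7. Such a core is called the immunoproteasome, and it is known for supplying peptides to MHC class I. In liver the constitutive core is the usual form of hepatocytes.

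The study used liver tissue of wild-type (Wt) mice, Il22-/- mice lacking the cytokine IL-22 and Il22bp-/- mice lacking its soluble binding protein. Each of the 3 genotypes had 3 samples after ischemia-reperfusion (IR), in which blood flow to the liver is stopped and restored, and 3 after sham surgery, so that each surgery had 9. Column names consist of IR or W and a number, with 9 of each. W was read as sham by elimination, because 9 samples remain once the IR columns are set aside and the wild-type samples number only 6. The headers carry no genotype, so both groups hold the 3 genotypes mixed, the knockouts were not checked and no genotype was compared. The sources used here do not give strain, age, sex, the way the alleles were made, or the lengths of ischemia and reperfusion. The series describes mice treated in triplicate without saying that no animal gave more than 1 sample. The p-values therefore measure the spread between these libraries.

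The deposited values are read counts that the authors divided by a size factor for each library, called normalized counts here. Depth lay between 10176617 and 12763837 reads counted in genes per library. Alb, which encodes albumin, was the highest gene in all 18 libraries, as liver tissue should show. It took 2.86% to 7.48% of the counts in IR libraries and 12.9% to 15.9% in sham libraries. Of 8 hepatocyte markers, 7 were lower after IR and 1 was higher, with summed levels of 654530 to 1030300 in IR and 2064100 to 2518900 in sham libraries. In whole tissue, fewer cells of a type and less RNA per cell cannot be told apart. Among sham libraries, W8 stood farthest from the others. Its chi-square per degree of freedom against them, over the counts of all genes, ran from 31 to 62.4, against 7.81 to 33.3 among the rest. The IR libraries differed more among themselves, at 12.7 to 159. The difference of Psmb8 is also given without W8, and the correlations of Psmb8 among sham libraries without W5 and W8 together.

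The sequences just upstream of 4 genes are shown because these genes part ways in the results: Psmb5 and Psmb6 encode constitutive catalytic subunits, Psmb10 encodes an immunoproteasome subunit and Psme2 an interferon-inducible activator. They are RefSeq promoter windows in GRCm38.p6, 5′ to 3′ on the gene's strand, trimmed to the longest run outside annotated exons and ending next to the start that RefSeq gives. Psmb5 lies at chr14:54618023-54618245 on the minus strand, Psmb6 at chr11:70525107-70525356 on the plus strand, Psmb10 at chr8:105938445-105938642 on the minus strand and Psme2 at chr14:55591114-55591351 on the minus strand. Capitals mark matches to the motifs described after the sequences.
Psmb5: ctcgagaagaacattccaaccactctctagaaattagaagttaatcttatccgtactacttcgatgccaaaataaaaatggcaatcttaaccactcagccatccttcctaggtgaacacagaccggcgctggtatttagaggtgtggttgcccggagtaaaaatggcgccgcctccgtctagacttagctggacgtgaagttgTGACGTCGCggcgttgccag
Psmb6: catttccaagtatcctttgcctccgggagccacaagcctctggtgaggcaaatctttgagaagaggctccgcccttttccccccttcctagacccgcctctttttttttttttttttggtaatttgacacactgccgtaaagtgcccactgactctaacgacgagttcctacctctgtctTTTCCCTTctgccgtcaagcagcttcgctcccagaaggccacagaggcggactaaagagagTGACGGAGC
Psmb10: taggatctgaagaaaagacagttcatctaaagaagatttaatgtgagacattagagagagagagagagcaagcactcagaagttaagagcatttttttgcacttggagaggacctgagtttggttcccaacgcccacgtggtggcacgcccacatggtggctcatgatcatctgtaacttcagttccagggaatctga
Psme2: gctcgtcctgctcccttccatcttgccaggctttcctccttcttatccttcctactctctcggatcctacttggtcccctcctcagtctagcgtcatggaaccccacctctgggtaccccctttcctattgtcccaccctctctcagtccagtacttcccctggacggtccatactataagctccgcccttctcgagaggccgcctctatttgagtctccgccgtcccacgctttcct

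The motifs were TGACNNNGC, the core of the antioxidant response element bound by NRF1 and NRF2, AANNGAAA, a core bound by interferon regulatory factors, TTCNNNGAA, bound by STAT proteins, and CCAAT, bound by NF-Y. Both strands were searched over 250 bases upstream of each start, and the marked matches overlap no other. Psmb5 holds TGACGTCGC from 47 to 39 bases upstream of its start. Psmb6 holds TGACGGAGC from 9 to 1 bases upstream, and TTTCCCTT, the interferon regulatory factor core on the opposite strand, from 70 to 63 bases upstream. The Psmb10 and Psme2 windows hold none of the 4 motifs. Of all 32851 windows in the table, 10.2% hold TGACNNNGC, 21.3% AANNGAAA, 7.02% TTCNNNGAA and 33.9% CCAAT. Among the 40 proteasome genes with a window, 5 hold TGACNNNGC (Psmb5, Psmb6, Psmc6, Psmd12 and Psmd9), 10 hold AANNGAAA, 2 hold TTCNNNGAA (Psmb8 and Psmg1) and 14 hold CCAAT. A match describes the letters in the window and is not evidence of binding.

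Proteasome genes differed between the surgeries in both directions. Of the cap genes 11 of 17 were higher after IR, of the constitutive core genes 12 of 14 were lower, and all 3 immunoproteasome genes were lower. Of the 48 genes, 47 passed the filter of a mean normalized count of at least 10. Psmb11, the catalytic subunit of the thymus, did not: it was listed at 0 in all 9 sham libraries and 0 to 2.23 in IR libraries. By limma on log2(normalized count + 1) with Benjamini-Hochberg adjustment over 12686 genes, 13 of the 47 were higher after IR, 26 were lower and 8 were not called at an adjusted p under 0.05. Over all genes tested, 38.3% were called higher and 37.7% lower. The median log2 difference was -0.31 over the proteasome genes and 0.02 over all genes tested. Folds are on this log2 scale, which understates the change of low genes because 1 is added to each count.

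The difference between surgeries also rose with the GC content of the transcript over all genes. Its Spearman correlation with GC percent was 0.48 over 12022 genes, which are not independent, and its median rose from -0.69 in the lowest of 5 equal groups of genes by GC to 0.64 in the highest. Over the 47 proteasome genes the correlation was 0.31. Transcript length showed a weaker trend, with a correlation of 0.15 over the same 12022 genes. The median difference was -0.39 in the shortest of 5 groups by length and between 0.01 and 0.20 in the others. The values were therefore also fitted after a correction of each library for GC content and transcript length. Both entered the same correction, so their parts in a changed call were not separated. After it, 20 proteasome genes were higher and 12 lower, of which 12 and 12 had the same call on the deposited scale, and 5 called lower before were called higher. Over all genes, 34.8% were then higher and 35.2% lower. Scaling each library to its total count in place of the size factor moved the median over all genes to 0.26 and gave 18 proteasome genes higher and 20 lower, with 47.2% of all genes higher and 28.9% lower. Whether GC-dependent recovery of RNA takes part in the differences was not tested, and corrected values are given beside the named genes whose call changes with the correction.

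**Figure D1:**
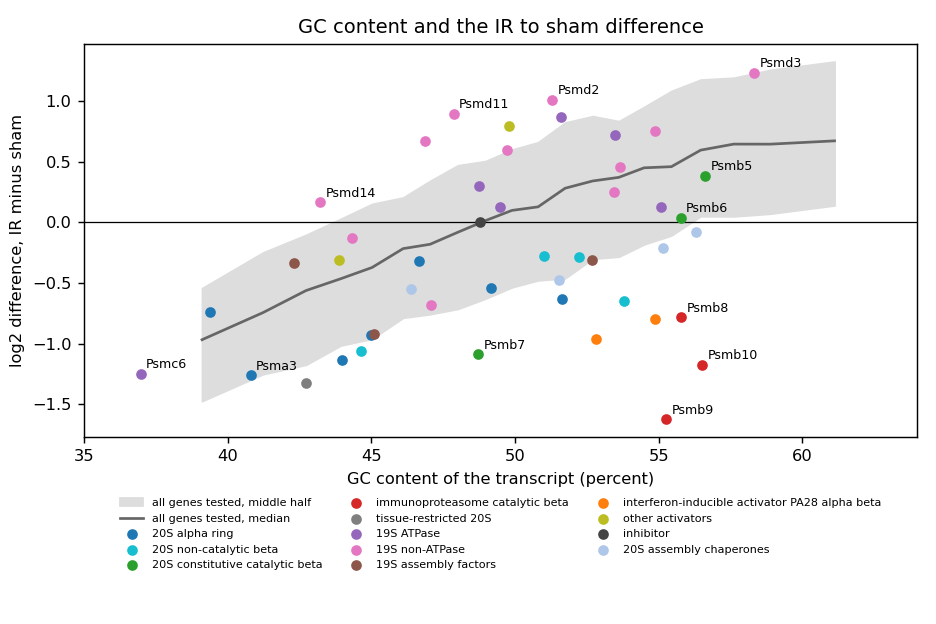
Log2 difference between IR and sham libraries (vertical axis) against the GC content of the transcript in percent (horizontal axis), with the median and the middle 50% of all genes tested as a line and a grey band and 1 point per proteasome gene, coloured by role. The immunoproteasome genes Psmb8, Psmb9 and Psmb10 lie below the band at a GC content of 55.2% to 56.5%, while Psmc6 and Psma3 lie low at a low GC content.

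All 3 immunoproteasome catalytic genes were lower after IR. The log2 difference was -1.62 for Psmb9, -1.17 for Psmb10 and -0.78 for Psmb8. They are among the GC-rich members, with a transcript GC content of 55.2% to 56.5%, where the median of all genes rose. With the correction for GC and length all 3 remained lower, at -1.74, -1.37 and -1.06.

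Psmb9 (ENSMUSG00000096727) encodes beta1i and lies on chromosome 17 from 34181987 to 34187764 on the minus strand. Its normalized count had a lowest value of 301, a median of 404 and a highest value of 623 in the 9 sham libraries, and 73.0, 163 and 286 in the 9 IR libraries. Groups of 3 values give the lowest, the median and the highest library in this order throughout. Every IR library was below every sham library, and the 3 lowest, IR7, IR8 and IR9, lay between 73.0 and 79.2. Psmb9 was 3.07-fold lower after IR (log2 difference -1.62, SE 0.23, limma adjusted p = 2.4e-06, n = 9 against 9).

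Psmb10 (ENSMUSG00000031897), which encodes beta2i, lies on chromosome 8 from 105935735 to 105938444 on the minus strand, downstream of the window printed for it. Its normalized count was 685, 910.1 and 1173 in sham libraries and 277, 394 and 608 in IR libraries. The groups did not overlap, with IR4 the highest of the IR libraries. Psmb10 was 2.25-fold lower after IR (log2 difference -1.17, SE 0.14, limma adjusted p = 1.9e-07).

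Psmb8 (ENSMUSG00000024338), which encodes beta5i, lies on chromosome 17 from 34197721 to 34201454 on the plus strand. Its normalized count was 414, 498 and 748 in sham libraries and 177, 304 and 502 in IR libraries. The groups overlapped, because IR1 and IR4 exceeded the lowest sham library, W5. Psmb8 was 1.72-fold lower after IR (log2 difference -0.78, SE 0.16, limma adjusted p = 2.0e-04). W8 was the highest sham library, and without it the log2 difference was -0.71.

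Exons of Psmb9 share 212 bases with Tap1 on the opposite strand, and exons of Psmb8 share 498 bases with the antisense gene Gm20496. Whether the authors counted by strand is not given in the sources used here, so reads from these stretches cannot be assigned to either gene. Tap1, a transporter of peptides for MHC class I, was higher after IR on the deposited scale (log2 difference 0.42, limma adjusted p = 0.0064). There its direction was opposite to that of Psmb9. With the correction for GC and length Tap1 was lower, at -0.41 (limma adjusted p = 0.011), in the same direction as Psmb9. Psmb10 shared no exonic base with another annotated gene.

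The constitutive subunits that these 3 replace did not move as a set. Psmb5, the chymotrypsin-like beta5, was higher after IR, with normalized counts of 324, 373 and 533 in sham libraries and 403, 523 and 632 in IR libraries. The groups overlapped, and the fold was 1.30 (log2 difference 0.38, SE 0.11, limma adjusted p = 0.0028). Psmb6, the caspase-like beta1, had 1743, 1904 and 2517 in sham libraries and 1615, 2103 and 2575 in IR libraries, with overlap and a log2 difference of 0.04 (SE 0.10, limma adjusted p = 0.74). With library totals Psmb6 was called higher, at 0.28 (limma adjusted p = 0.0042). Psmb7, the trypsin-like beta2, had 1629, 1902 and 2145 in sham libraries and 739, 881 and 1062 in IR libraries. Psmb7 did not overlap between the groups and was 2.13-fold lower after IR (log2 difference -1.09, SE 0.08, limma adjusted p = 1.3e-10). Exons of Psmb7 share 405 bases with Nek6 on the opposite strand, and those of Psmb5 hold the microRNA gene Mir686.

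**Figure D2:**
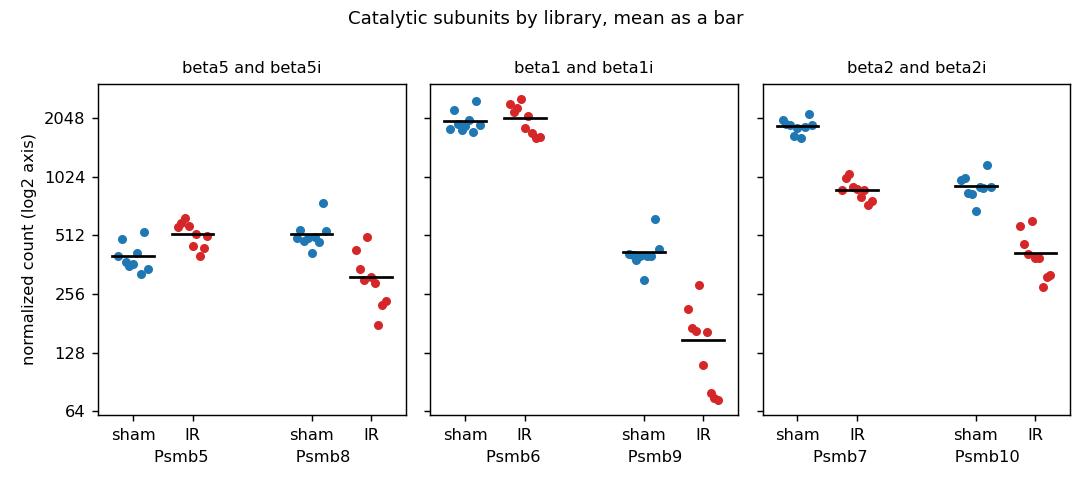
Normalized counts (log2 axis) of the 6 catalytic subunits in each library, 9 sham and 9 IR, with the group mean as a bar and each constitutive subunit beside the immunoproteasome subunit that takes its place. Psmb8 and Psmb9 were lower after IR beside a higher Psmb5 and a Psmb6 that was not called, whereas Psmb10 and Psmb7 were both lower.

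The difference within each pair was tested itself, as the log2 of the immunoproteasome subunit minus the log2 of its constitutive partner in the same library. Psmb8 minus Psmb5 lay between 0.15 and 0.64 in sham libraries and between -1.19 and -0.19 in IR libraries. Psmb8 thus exceeded Psmb5 in every sham library and was below it in every IR library, per gene and not per length. The change between groups was -1.16 (SE 0.13, two-sided exact permutation p = 4.1e-05, the smallest that 48620 relabelings can give, adjusted 6.2e-05 over 3 pairs). Psmb9 minus Psmb6 lay between -2.63 and -2.01 in sham libraries and between -4.47 and -3.17 in IR libraries. These did not overlap either, with a change of -1.66 (SE 0.17, exact permutation p = 4.1e-05, adjusted 6.2e-05).

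The third pair behaved differently. Psmb10 minus Psmb7 was -1.41 to -0.83 in sham libraries and -1.66 to -0.58 in IR libraries, with a change of -0.08 (SE 0.13, exact permutation p = 0.53, adjusted 0.53). On the deposited scale no change in this pair was detected beyond the spread between libraries. Psmb7 has a transcript GC content of 48.7% and Psmb10 one of 56.5%, with lengths of 1160 and 1311 bases. With the correction for GC and length the change in the pair was -0.88 (exact permutation p = 4.1e-05), so that its call depends on that correction. For the Psmb8 and Psmb9 pairs the corrected changes were -1.39 and -1.83.

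Compared per kilobase of 1 transcript per gene, the catalytic subunits had unequal levels. In sham libraries Psmb6 had a mean of 2483 normalized counts per kilobase, Psmb7 1612 and Psmb5 445. The immunoproteasome subunits had 701 for Psmb10, 320 for Psmb8 and 310 for Psmb9. In IR libraries the constitutive means were 2569, 760 and 580, and those of Psmb10, Psmb8 and Psmb9 were 318, 193 and 110. Each immunoproteasome gene was thus below its own constitutive partner per kilobase in both groups, a description with no test.

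The interferon-inducible activator moved with the immunoproteasome genes. Psme1 and Psme2 encode the alpha and beta subunits of PA28, a ring that docks on the core without the 19S cap, and like the immunoproteasome subunits they are known to be induced by interferon gamma. Psme2, whose upstream window is printed with the catalytic subunits, had normalized counts of 491, 565 and 670 in sham libraries and 174, 297 and 414 in IR libraries. No IR library reached the sham range, and the fold was 1.95 lower after IR (log2 difference -0.96, SE 0.14, limma adjusted p = 2.4e-06). Psme1 had 996, 1293 and 1666 in sham libraries and 525, 724 and 1052 in IR libraries, with IR1 and IR4 above the lowest sham library. It was 1.73-fold lower (log2 difference -0.79, SE 0.13, limma adjusted p = 1.2e-05). Both stayed lower after the correction for GC and length, at -0.78 for Psme1 and -0.70 for Psme2. Psme2b, a close copy of Psme2, was listed at 1.49 to 24.9 and could take a small share of its reads.

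Within the IR libraries the immunoproteasome genes ranked alike. Psmb8 on the log2 scale correlated with Psmb10 (Pearson r = 0.99, exact permutation p = 1.4e-05, Spearman rho = 0.98, exact permutation p = 5e-05, n = 9). For Psmb9 r was 0.92 (p = 4.5e-04) and rho 0.88 (p = 0.0031), for Psme1 r was 0.90 (p = 0.0013) and rho 0.93 (p = 7.5e-04), and for Psme2 r was 0.84 (p = 0.0051) and rho 0.88 (p = 0.0031), all by exact permutation over 9 libraries. All 4 passed adjustment over the 16 relations computed, with adjusted p from 2.2e-04 to 0.014. Without IR4 and IR7, the libraries farthest from the median of Psmb8, r was 0.99, 0.89, 0.97 and 0.93 for Psmb10, Psmb9, Psme1 and Psme2. IR4 and IR1 were the highest and IR7 the lowest of the IR libraries for Psmb8.

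Coefficients for Psmb5, the only constitutive subunit compared, and for the other genes compared were lower, but differences between correlations were not tested. Psmb6, for which no correlation was computed, was also highest in IR4 and IR1, at 2575 and 2441. Its lowest libraries were IR7, IR8 and IR9, between 1615 and 1731. The ranking is therefore not shown to be particular to the immunoproteasome and PA28 genes. Psmb5 gave r = 0.73 in IR libraries (exact permutation p = 0.027, adjusted 0.044) and rho = 0.70 (exact permutation p = 0.043, adjusted 0.087), with r = 0.56 without IR4 and IR7. Irf1, a transcription factor that drives the immunoproteasome genes under interferon, gave r = 0.32 (exact permutation p = 0.39) and rho = 0.13 (exact permutation p = 0.74). Ptprc, the leukocyte antigen CD45, gave r = -0.61 (exact permutation p = 0.084) and rho = -0.58 (exact permutation p = 0.11). Neither Irf1 nor Ptprc passed the threshold. The headers give no batch or genotype, so the relations could not be computed within either.

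In sham libraries the same relations rested in part on W5 and W8, most for Psme1 and Psme2. Psmb8 gave r = 0.97 with Psmb9, 0.88 with Psmb10, 0.84 with Psme1, 0.77 with Psme2 and 0.74 with Psmb5 (exact permutation p = 5.5e-04, 0.0053, 0.0096, 0.015 and 0.019, n = 9). The rho values were 0.73, 0.78, 0.77, 0.57 and 0.60, with exact permutation p of 0.031, 0.017, 0.021, 0.12 and 0.097, or 0.055 to 0.16 after adjustment over the 16 relations. Without W5, the lowest, and W8, the highest, r fell to 0.70, 0.54, 0.25, 0.07 and 0.52.

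Markers of the immune cells that carry the immunoproteasome moved as well, and not together. All 4 B cell markers and all 4 tested T and NK cell markers were lower after IR. The B cell markers summed to 7.64 to 15.5 in IR and 82.2 to 147 in sham libraries, and the 6 T and NK cell markers to 13.4 to 46.3 and 78.8 to 137. Of 5 Kupffer cell markers, 4 were lower and Marco was higher, with sums of 1786 to 3462 in IR and 5096 to 6851 in sham libraries. All 6 neutrophil markers were higher, with sums of 321 to 4046 in IR and 55.9 to 129 in sham libraries. Of 6 pan-leukocyte markers, 3 were lower, 1 was higher and 2 were not called, with sums of 1192 to 3120 and 1659 to 1951. Of 5 dendritic cell markers, 2 were tested, Itgax higher and Zbtb46 lower, with sums of 98.9 to 123 and 94.4 to 143. After the correction for GC and length the 4 called pan-leukocyte markers were no longer called, with Ptprc at 0.10, Cd52 at -0.08, Cd53 at 0.36 and Laptm5 at -0.26. Neither was Itgax, at 0.19, nor the T cell marker Cd3e, at -0.56. No marker was at 0 in all libraries of a group. The part of these cells in the level of the immunoproteasome genes was not tested.

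Ptprc itself had normalized counts of 120, 164 and 203 in sham libraries and 61.7, 108 and 165 in IR libraries. The groups overlapped, and the log2 difference was -0.50 (SE 0.17, limma adjusted p = 0.010). Corrected for GC and length it was 0.10 and was not called.

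Genes of the interferon pathway that controls these genes split in direction on the deposited scale. Stat2, Irf9 and Nlrc5 were higher, Ifngr2 was lower, and Irf1 and Ifngr1 were not called. Irf1 had normalized counts of 368, 437 and 532 in sham libraries and 323, 399 and 508 in IR libraries, a log2 difference of -0.18 (SE 0.10, limma adjusted p = 0.11) that was not called. Corrected for GC and length, Irf1 was lower at -0.39 (limma adjusted p = 0.0011), while its difference was 0.06 with library totals. Irf9 was no longer called after the correction, at 0.20. Over the 7 genes of this list, 1 was higher and 4 were lower after the correction, with Stat2 at 0.74 and Ifngr2 at -0.75. Nlrc5, a coactivator of MHC class I genes that also acts on Psmb9, differed by 0.33 (SE 0.11, limma adjusted p = 0.0086) on the deposited scale and by -0.29 after the correction for GC and length.

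The genes that carry peptides onward to MHC class I did not, as a set, share the fall of the immunoproteasome. Of 9 genes, 5 were higher, 2 were lower and 2 were not called, with a median of 0.42. Tap2, the partner of Tap1, differed by 0.64, and Calr and Pdia3, chaperones of the loading complex, by 1.95 and 0.98. B2m, the light chain of MHC class I, and Erap1, which trims the peptides, fell by 1.66 and 1.67 on the log2 scale. Corrected for GC and length, 3 of the 9 were higher and 4 lower. Tap1 was then called lower at -0.41, and Tap2 and B2m were not called, at -0.24 and -0.14.

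Among the constitutive 20S genes, 12 of 14 were lower after IR, 1 was higher and 1 was not called, with a median log2 difference of -0.64. All 7 genes of the alpha ring, which forms the gate of the barrel, were lower, from -0.32 for Psma6 to -1.26 for Psma3. The 4 non-catalytic beta genes were lower too, at -1.06 for Psmb1, -0.65 for Psmb3 and -0.28 for both Psmb2 and Psmb4. In 7 of the 14, every IR library was below every sham library. Over all genes tested, 20.3% had all IR libraries lower and 19.9% had all IR libraries higher.

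Psma3 (ENSMUSG00000060073), the alpha7 subunit, on chromosome 12 from 70974621 to 70996347, had the largest fall of the ring. Its normalized count was 378, 526 and 718 in sham libraries and 189, 225 and 270 in IR libraries. No IR library reached the sham range, and the fold was 2.40 lower (log2 difference -1.26, SE 0.10, limma adjusted p = 1.1e-09). Its transcript has a GC content of 40.8%, and after the correction for GC and length its log2 difference was -0.44 (limma adjusted p = 4.7e-04).

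The fall of the 20S genes as a group depended on the correction. The alpha ring genes have a median GC content of 45.0%, below the 50.3% of all genes tested. The constitutive 20S transcripts are also short, with a median length of 1162.5 bases against 2962 for all genes tested. After the correction 5 of the 14 constitutive 20S genes were lower, all 5 of them lower before, and 4 were higher, with a median of -0.03. Psma2, Psma6 and Psmb2, called lower on the deposited scale, were then higher at 0.20, 0.54 and 0.20. Psma1, Psma4, Psma5 and Psmb4 lost their call, at -0.03, 0.07, -0.03 and -0.05. Psma3, Psma7, Psmb1, Psmb3 and Psmb7 stayed lower, and Psmb5 stayed higher at 0.34.

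The 19S cap moved the other way. Of its 17 genes with a Psm symbol, 11 were higher after IR, 2 were lower and 4 were not called. Their median log2 difference was 0.45. In 8 of them every IR library was above every sham library, and in 2 every IR library was below. With the correction for GC and length 13 were higher and 4 were not called, the median was 0.64, and 10 of the 11 kept their call. Psmd13 was the one that did not, at 0.03.

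The largest rises were in the non-ATPase genes. Psmd3 (ENSMUSG00000017221), a subunit of the lid on chromosome 11 from 98682554 to 98695979, had normalized counts of 650, 817 and 1203 in sham libraries and 1629, 1893 and 2453 in IR libraries. All IR libraries lay above all sham libraries, and the fold was 2.35 higher (log2 difference 1.23, SE 0.11, limma adjusted p = 3.3e-09). Its transcript is the richest in GC of all the proteasome genes, at 58.3%, and the corrected difference was 0.59. Psmd2 (ENSMUSG00000006998), a large base subunit and a docking site for ubiquitin shuttles, had 976, 1071 and 1185 in sham libraries and 1967, 2134 and 2280 in IR libraries. The ranges were again apart, with a fold of 2.01 (log2 difference 1.01, SE 0.06, limma adjusted p = 8.8e-12) and a corrected difference of 0.70. Psmd11 (ENSMUSG00000017428), a lid subunit that joins the cap to the core, had 543, 597 and 756 in sham libraries and 1011, 1134 and 1360 in IR libraries. Psmd11 did not overlap either, with a log2 difference of 0.89 (SE 0.08, limma adjusted p = 1.7e-09) that was 0.96 after the correction.

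Of the other non-ATPase genes, Psmd4, a ubiquitin receptor, rose by 0.75, Psmd1, a base scaffold, by 0.67 and Psmd7, the partner of the deubiquitinase, by 0.59. Psmd8 and Psmd13 rose by 0.45 and 0.25 with overlap between the groups. Psmd14, the deubiquitinase that removes the ubiquitin chain, differed by 0.17 (limma adjusted p = 0.13) and Psmd12 by -0.13 (limma adjusted p = 0.13). Both are poor in GC and were higher after the correction, at 1.21 and 0.64. Psmd6, a lid subunit, was the exception among those with a Psm symbol and fell by 0.68 without overlap, but its corrected difference was 0.00.

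The 6 ATPases that form the unfolding ring were not uniform. Psmc5 rose by 0.87, Psmc4 by 0.72 and Psmc2 by 0.30, while Psmc1 and Psmc3, each at 0.13, were not called. With the correction Psmc2 was at 0.63, Psmc1 was called higher at 0.47 (limma adjusted p = 3.0e-07) and Psmc3 was at -0.10. Psmc1 was also called higher with library totals, at 0.37. Psmc6 (ENSMUSG00000021832), on chromosome 14 from 45329788 to 45349705, fell. Its normalized count was 1359, 1620 and 1892 in sham libraries and 568, 682 and 826 in IR libraries, which did not overlap. The fold was 2.37 lower (log2 difference -1.25, SE 0.09, limma adjusted p = 1.1e-10). Its transcript has the lowest GC content of the proteasome genes, 37.0%, and after the correction the difference was 0.11 and was not called.

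**Figure D3:**
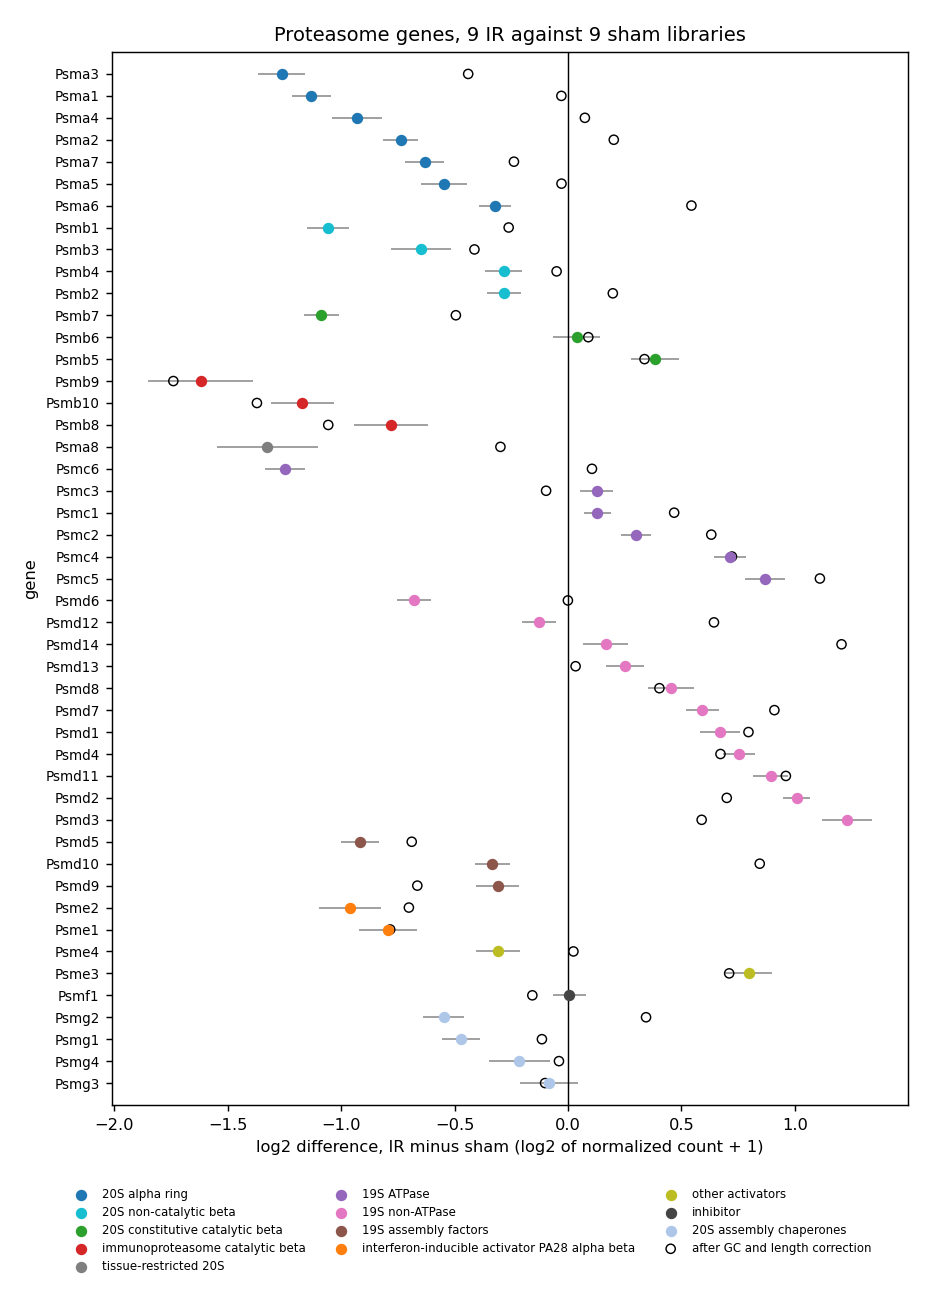
Log2 difference between 9 IR and 9 sham libraries for the 47 proteasome genes tested, ordered by role, with the standard error from limma as a bar and the difference after the correction for GC and length as an open circle. Filled points of the alpha ring lie between -1.26 and -0.32 and most open circles nearer 0, the immunoproteasome genes lie below 0 in both fits, and 11 of the 17 genes of the 19S cap are called above 0.

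The contrast between cap and core was present in each of the 9 IR libraries. For each library the median deviation of the 19S genes from their sham means, minus that of the constitutive 20S genes, lay between -0.11 and 0.10 in sham libraries and between 0.90 and 1.52 in IR libraries. Corrected for GC and length it lay between -0.03 and 0.07 in sham libraries and between 0.51 and 0.88 in IR libraries. The groups did not overlap in either. The 19S median alone was 0.24 to 0.57 in IR libraries, and 0.48 to 0.96 after the correction. The 20S median was -0.99 to -0.44 in IR libraries, but -0.26 to 0.14 after it, which overlaps the sham range of -0.08 to 0.12. The immunoproteasome median was -1.71 to -0.52 in IR libraries and -1.86 to -0.85 after the correction, below the sham ranges of -0.41 to 0.54 and -0.27 to 0.30.

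**Figure D4:**
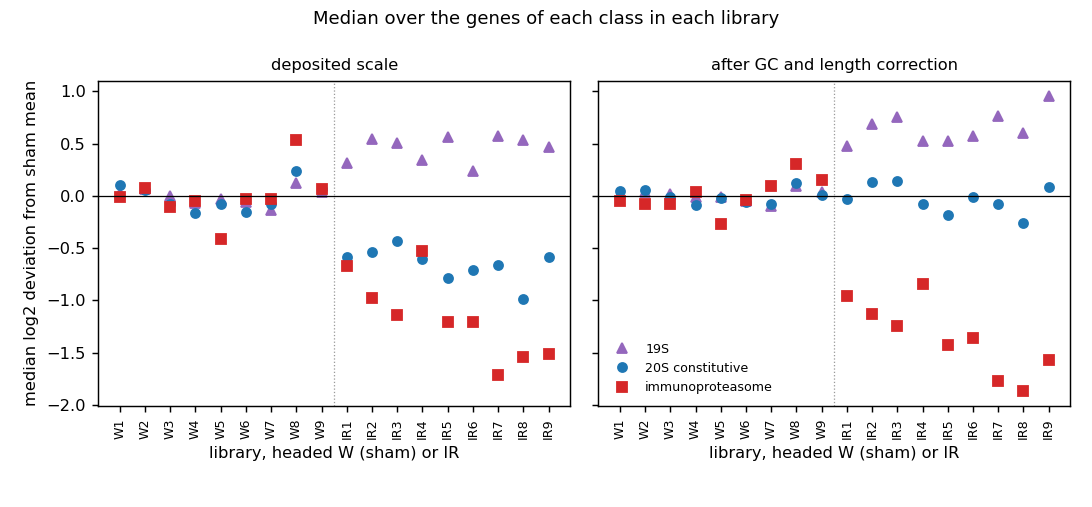
Median log2 deviation from the sham mean over the genes of the 19S cap, the constitutive 20S core and the immunoproteasome in each of the 18 libraries, on the deposited scale (left) and after the correction for GC and length (right). In IR libraries the 19S medians lie above 0 and the immunoproteasome medians below 0 on both scales, whereas the 20S medians lie below 0 on the left and between -0.26 and 0.14 on the right.

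Per kilobase, the levels of cap and core genes drew together. The median 20S gene had 1274 normalized counts per kilobase in sham libraries and 710 in IR libraries. The median 19S gene had 576 in sham libraries and 721 in IR libraries. These are medians of group means on the deposited scale, with 1 transcript length per gene, and have no test. With the correction for GC and length the median log2 difference was -0.03 for the 20S genes and 0.64 for the 19S genes. The fall of the 20S level per kilobase therefore depends on the scale.

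The remaining activators and the inhibitor had separate patterns. Psme3, which encodes the nuclear PA28 gamma and is not known as an interferon-induced gene, had 415, 500 and 648 in sham libraries and 673, 846 and 1099.7 in IR libraries. Every IR library was above every sham library (log2 difference 0.80, SE 0.10, limma adjusted p = 7.4e-07), opposite in direction to Psme1 and Psme2. Psme4, the activator PA200, fell by 0.31 with overlap between the groups, and its corrected difference was 0.02. Psmf1, the inhibitor PI31, differed by 0.01 (SE 0.07, limma adjusted p = 0.95). With library totals Psmf1 was called higher, at 0.24 (limma adjusted p = 0.011).

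Assembly factors were mostly lower. Psmd5, Psmd9 and Psmd10 are chaperones that help build the base of the cap, and they fell by 0.92, 0.31 and 0.33, against the direction of most cap genes. After the correction Psmd5 and Psmd9 stayed lower at -0.69 and -0.66, and Psmd10 was higher at 0.85. A non-coding gene on the opposite strand shares 25.5% of the exonic bases of Psmd9. Of the chaperones of the core, Psmg2 fell by 0.55 and Psmg1 by 0.47 without overlap between the groups, while Psmg3 and Psmg4 differed by -0.08 and -0.22 and were not called. After the correction Psmg2 was higher at 0.34 and Psmg1 was no longer called, at -0.12. Psma8, the alpha subunit of the testis, was low in liver, with 13.6, 17.6 and 25.5 in sham libraries and 2.60, 7.83 and 10.3 in IR libraries. The groups did not overlap (log2 difference -1.33, SE 0.22, limma adjusted p = 2.0e-05), and the corrected difference of -0.30 was not called.

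**Figure D5:**
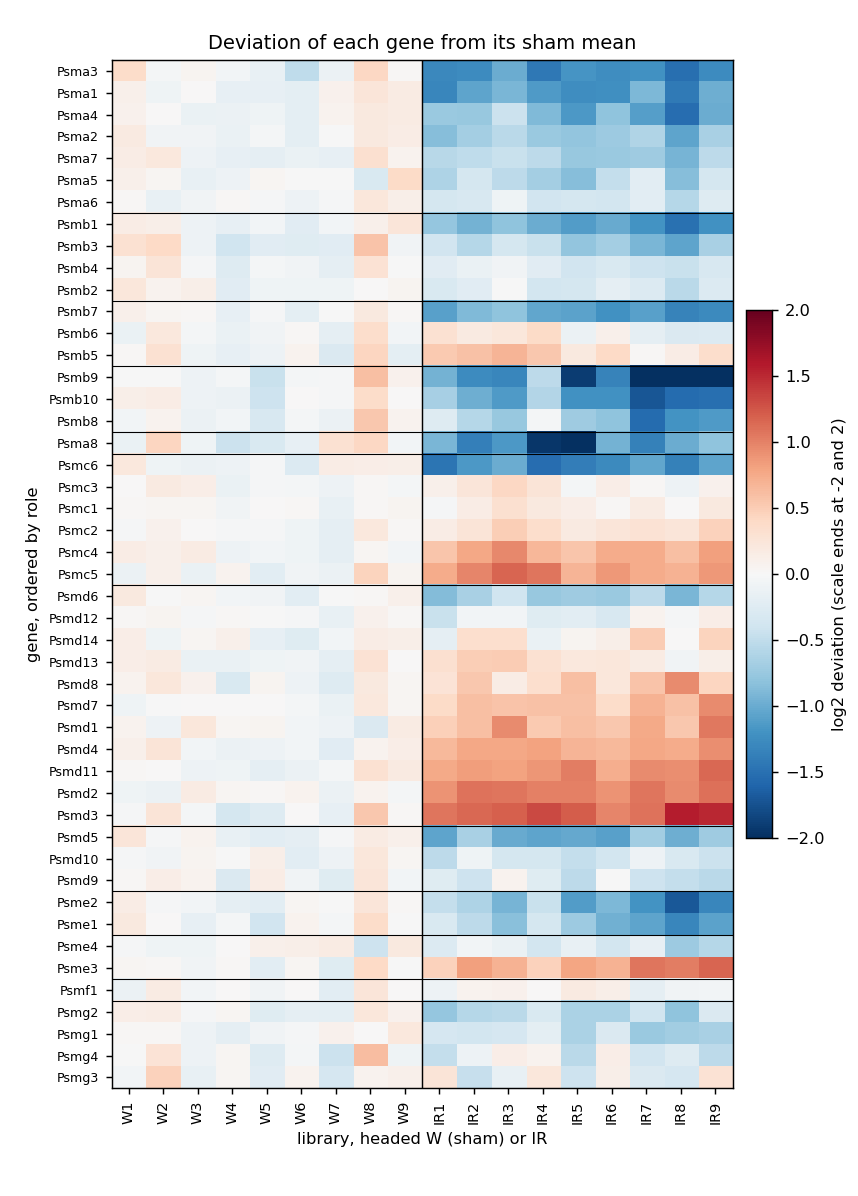
Log2 deviation of each proteasome gene from its sham mean in each of the 18 libraries, ordered by role, with the colour scale ending at -2 and 2. The cap genes Psmd3, Psmd2 and Psmd11 are red in all 9 IR libraries, the alpha ring genes are mostly blue, and Psmb8, Psmb9 and Psmb10 are lowest in IR7, IR8 and IR9.

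Genes that work with the proteasome under other symbols were mostly lower on the deposited scale. Of 7 partners found in the table, 6 were lower and 1 was higher, with a median of -0.51. After the correction for GC and length 5 were higher and 2 lower. Pomp, the chaperone that completes the core, had 2111, 2502 and 3388 in sham libraries and 1217, 1389 and 1671 in IR libraries, with no overlap (log2 difference -0.86, SE 0.09, limma adjusted p = 2.6e-08, and -0.47 after the correction). Sem1, a small lid subunit, fell by 1.30 and Uchl5, a deubiquitinase of the cap, by 0.79, but both were higher after the correction, at 0.33 and 0.45. Adrm1, the ubiquitin receptor that holds Uchl5, rose by 1.22 and by 0.77 after the correction.

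Transcription of proteasome genes can be raised by NRF1, encoded by Nfe2l1, which is released and processed with the help of Vcp, Ngly1 and Ddi2. Of these and Nfe2l2, 3 were higher and 2 lower. Nfe2l1 had normalized counts of 1060, 1074 and 1153 in sham libraries and 1452, 1742 and 2004 in IR libraries, with no overlap (log2 difference 0.65, SE 0.07, limma adjusted p = 3.9e-08). With the correction for GC and length its difference was -0.09 and was not called. Vcp and Ddi2 differed by 0.67 and 0.50, and by 0.44 and 0.29 after the correction. Ngly1 fell by 1.06, with -0.43 after the correction. Nfe2l2, which encodes NRF2, fell by 0.51 and was not called after the correction, at -0.22.

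Ubiquitin genes and the shuttles that bring substrates to the cap were mostly higher. Of 11 genes, 8 were higher, with a median of 0.60. After the correction 7 were higher. Sqstm1, the autophagy receptor p62, rose by 1.25, Ubqln2 by 1.12 and Uba1, the ubiquitin-activating enzyme, by 0.98. Their corrected differences were 0.88, 0.84 and 0.49. Rps27a was lower, at -0.48, but was not called after the correction, at 0.19.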

How the data were processed

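The authors deposited 1 table of normalized counts, a signal made by dividing reads per gene by DESeq2 size factors. Trimmomatic 0.33, STAR 2.5.0a, DESeq2 1.14 and GRCm38 were used per the submitters' processing notes. Counter, annotation and strandedness: not given in the sources used here. All deposited values were whole multiples of 1 step per library (tolerance 0.01 reads), which gave the reads back.

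Groups came from the column headers, IR and W (read as sham). Genes with a mean of at least 10 were fitted with limma 3.58.1 (R 4.3.3) on log2(normalized count + 1), with no covariate and Benjamini-Hochberg adjustment. Pairs and correlations were tested by exact permutation (scipy 1.17.1). The script was tested on simulated data. Alternatives were other pseudocounts, filters, scalings and tests (edgeR 4.0.16 and DESeq2 1.42.0 on recovered counts), a replicate block and leaving out each library. The correction regressed each library's log2 values on natural splines (5 degrees of freedom) of GC content and length. Positions, lengths and GC come from GENCODE vM21 on GRCm38, with 1 transcript per gene. Promoter windows come from RefSeq.

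The members, gene lists and marker lists were chosen with earlier results of these data known. Values in full are given for the 6 catalytic subunits, Psme1, Psme2, the 3 largest rises and 3 largest falls among the rest, and Irf1, Nfe2l1, Pomp and Ptprc. Some genes of the lists are not reported here. Values of Psme3 and the windows of Psmb6 and Psme2 were added after their values were seen. Windows of Psmb8 and Psmb9 lie in annotated exons and are not printed. No 2 libraries of a group were duplicates: the lowest chi-square per degree of freedom was 7.81.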

Additional observations from a re-analysis of the deposited data

Results flagged for a closer look

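Among the 9 sham libraries, the highest value of Psmb8 stood apart from the rest. It was a normalized count of 748.3 in W8, and on the log2 scale its gap to the next library was 0.54 of the whole sham range. It was the only gap past the critical value among the 34 tested, a test that chance passes in about 1 of 20 groups. The chi-square distances of W8 from the other sham libraries over all genes are given with the results.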

How the results depend on the processing

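These alternatives were chosen after seeing the data: the correction for GC and length, scaling by the library total, scaling by the total without the 100 highest genes, and edgeR on 17 libraries without W1, whose step per read is close to 1. With pseudocounts of 0.5 and 5, no filter, TMM and upper quartile scaling, a robust prior and edgeR, 13 proteasome genes were higher and 26 lower, each the same genes. A minimum mean of 50 left 25 lower, and DESeq2 called 14 higher, adding Psmc1 (0.13, adjusted p = 0.020). Without one library in turn 13 to 14 were higher and 26 lower, and 9463 to 9670 genes in all were called. The pair changes ranged from -1.24 to -1.11 (Psmb8 and Psmb5), -1.75 to -1.59 (Psmb9 and Psmb6) and -0.15 to -0.02 (Psmb10 and Psmb7).

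The header numbers gave no sign of pairing: same-numbered libraries correlated at -0.10 to 0.12, with 1 of 9 pairs over 0.1 and no IR library matching its own number best. The fit with that number as a replicate block called 13 proteasome genes higher and 26 lower.

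After the correction for GC and length 20 were higher and 12 lower, and Psmb10 minus Psmb7 changed by -0.88. The sign turned for Psmc3 (-0.10), Psma2 (0.20), Psmd12 (0.64), Psma6 (0.54), Psmc6 (0.11), Psmg2 (0.34), Psmb2 (0.20), Psmd10 (0.85), Psma4 (0.074), Psmf1 (-0.16), Psme4 (0.024), Nfe2l1 (-0.091) and Ptprc (0.10). With library totals it turned for Psmd12 (0.11), Psmg3 (0.15), Psmg4 (0.022) and Irf1 (0.063), and without the 100 highest genes these were 0.10, 0.14, 0.011 and 0.053. Psmf1 was -0.012 with TMM, -0.016 with edgeR, -0.036 with edgeR on 17 libraries and -0.021 to 0.037 without one library in turn. Psmb6 was -0.0046, without IR4, to 0.083, without W8. With library totals Psmb6 and Psmf1 were called higher, at 0.28 and 0.24 (limma adjusted p = 0.0042 and 0.011). Irf1 was called lower without IR8 (-0.22). The cause was not tested. Whole tissue and mixed genotypes limit these values, and Psma8 and Psmb11 are near the lowest level that can be measured.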
